A study of Triticum dicoccoides with 12 samples.

Results

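A set of 150 probe sets marks transcripts that, in roots of Triticum turgidum subsp. dicoccoides, the wild emmer wheat, were high in watered plants and lower, but still detected, after water was withheld. They were taken from the 61115 probe sets of the Affymetrix wheat genome array that are not array controls. The rule asked for a stressed minus well-watered difference of group means at or under -1.3 in both genotypes, Y12-3 and A24-39, and for both stressed means at or above 0. The members were thus chosen by their stress differences and stressed means, which are given as a description with no test. Another 147 probe sets met the limit on the difference in both genotypes but had a stressed mean under 0.

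Total RNA came from roots of plants labelled as 4 weeks old, grown in a greenhouse. Y12-3 and A24-39 were each either well-watered or kept without water for 7 days from the 4-leaf stage. The labels name 3 biological replicates for each of the 4 combinations, and 12 arrays in all. Whether 1 plant or a pool went on an array is not said, so p-values measure the spread between these samples. In such bulk RNA, fewer cells of a type and less RNA per cell cannot be told apart. Values were deposited on a scale that behaves like a logarithm, of a base that is not stated, and are centred so that each array has a mean of 0.00. At the limit of the rule, a difference of -1.3 is a ratio of 3.67 if the logarithm is natural and 2.46 if it is base 2, provided no scaling followed.

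When soil dries, roots lose water and turgor, cell expansion slows, and the hormone abscisic acid accumulates. Transcripts for growth, cell wall building and nutrient uptake are commonly lowered in plant roots under such conditions, while transcripts for protective proteins are raised. Steady-state levels on an array do not separate slower synthesis from faster decay. The annotation used here gave a gene symbol to 8 of the 150 probe sets. All 8 are LOC placeholders without a description, and the RefSeq table of wild emmer held 0 of the 8 identifiers. Functions of the members are therefore not stated, and the other 142 are named by their probe set identifier. Symbol lists for water channels, cell wall enzymes, tubulins, histones, peroxidases and sugar enzymes had 0 matches among the members; on the whole array the cell wall list matched 1 probe set, the tubulins 2 and the others 0. The 4 probe sets of the shoot markers FBP and petC had group means between -0.78 and -0.11.

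In watered roots the members had bright signals. The mean over 3 arrays ranged from 1.53 to 4.63 in Y12-3, with a median of 2.67 over the 150 members, and from 1.47 to 4.79 in A24-39, with a median of 2.54. The median over all tested probe sets was -0.30 and -0.31. On the average of the watered means, the lowest member stood at the 93.8 percentile of all tested probe sets and the median member at the 98.1 percentile. In stressed roots the median member had a mean of 0.64 in Y12-3 and 0.66 in A24-39, and the highest member 2.73 and 2.96. The limit of 0 on the stressed means came from the rule. For comparison, the array holds 23 control probe sets with no wheat target, whose highest mean over the arrays was -0.152. In 39 members at least 1 stressed array lay under 0, and in 20 of them at least 1 lay at or under that control.

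**Figure D1:**
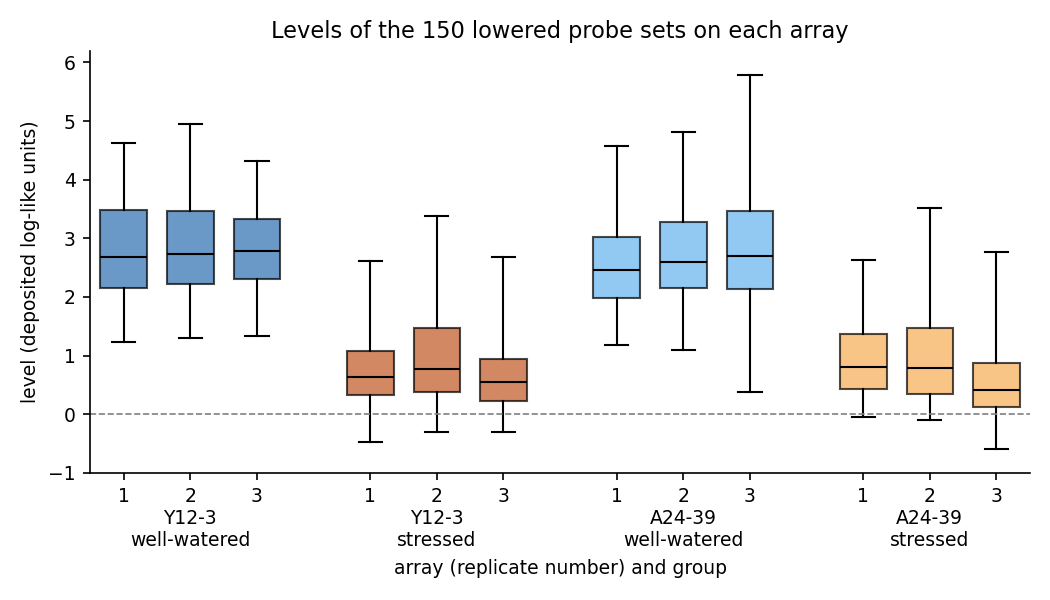
Level of the 150 lowered probe sets on each of the 12 arrays, in deposited log-like units. The line in a box is the median, the box spans the quartiles and the whiskers reach the lowest and highest member. Array medians lie between 2.46 and 2.78 in watered and between 0.41 and 0.80 in stressed roots.

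The fall had a median of -1.90 in Y12-3 (quartiles -2.32 and -1.64) and of -1.73 in A24-39 (quartiles -2.06 and -1.54). It was at least 2 units in both genotypes for 38 members and at least 3 units for 4. The SE of a member's stress difference had a median of 0.217. The 3 stressed arrays lay below the 3 watered ones for all 150 members in Y12-3, where 16.4% of all tested probe sets had that order, and for all 150 in A24-39, where 11.2% had it. The rule used this contrast, so nothing is read from these counts.

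Ta.24635.1.S1_at had the largest mean fall. Its level was 3.80, 3.70 and 3.46 on the watered and 0.45, -0.10 and 0.43 on the stressed Y12-3 arrays, a difference of -3.40 ± 0.18 (SE). In A24-39 it was 3.43, 3.62 and 4.03 in watered and 0.25, 0.11 and -0.03 in stressed roots, a difference of -3.58 ± 0.18. If no scaling followed the logarithm, these are ratios of 29.8 and 35.9 on the natural reading and 10.5 and 12 on the log2 reading. Every stressed array was far below every watered one, and the genotypes overlapped under both waterings. Ta.13669.1.S1_at fell from 3.65, 3.87 and 3.83 to 0.60, 0.11 and 0.48 in Y12-3, and from 3.23, 3.60 and 4.25 to 0.80, 0.29 and 0.33 in A24-39. Ta.21069.2.S1_a_at fell by 3.25 and 3.33, and Ta.5825.1.S1_x_at by 3.14 and 3.08. In A24-39 the third watered array was the highest for all 8 members with the largest mean fall, which was not the order in Y12-3.

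Also among these 8 are 3 probe sets of the group Ta.1840. The part of the identifier up to the second full stop names a group of related wheat sequences. These 3 also have the next number in common, as Ta.1840.1, and so share their target. Ta.1840.1.S1_at read 3.84, 3.19 and 3.52 in watered and 0.14, 0.15 and -0.11 in stressed Y12-3 roots. In A24-39 it read 2.99, 3.38 and 3.90 in watered and 1.20, 0.45 and -0.26 in stressed roots. The stressed A24-39 arrays were thus spread over a much wider range than the stressed Y12-3 arrays. The same order, with the first array highest and the third lowest, was seen for Ta.1840.1.S1_a_at (1.32, 0.51 and -0.38) and Ta.1840.1.S1_x_at (1.26, 0.59 and -0.30). Without the third stressed A24-39 array the whole set would have 134 members, of which 127 are among the 150.

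**Figure D2:**
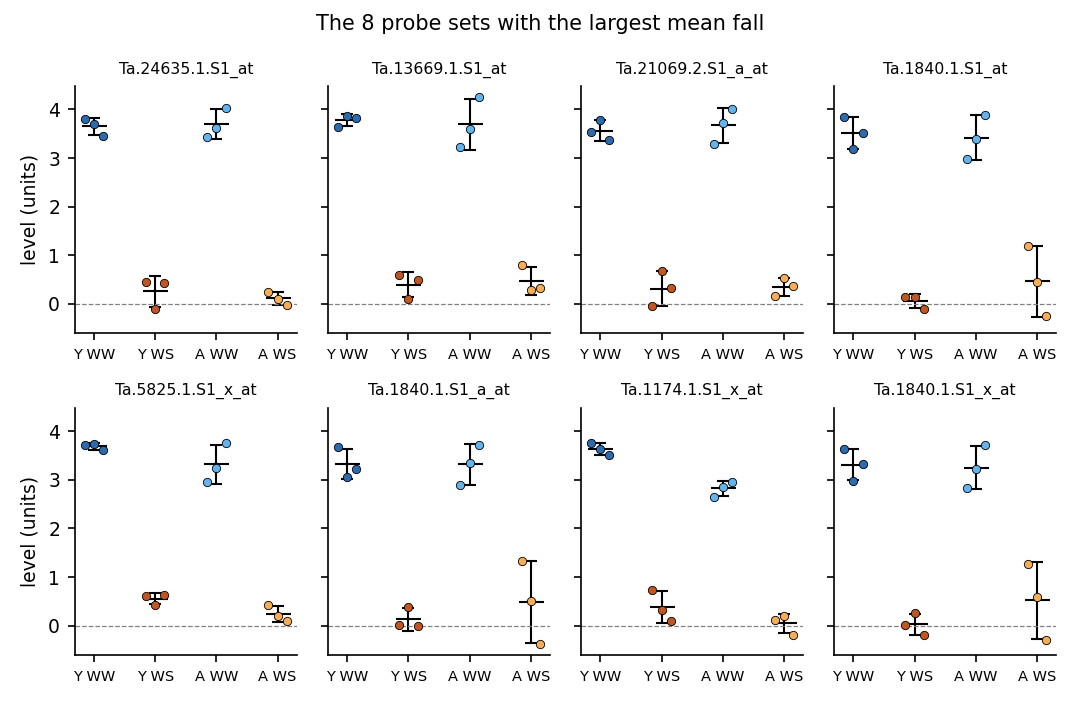
Levels of the 8 probe sets with the largest mean fall, in deposited log-like units, in Y12-3 (Y) and A24-39 (A) roots that were well-watered (WW) or stressed (WS). Points are single arrays in the order of their replicate number, and bars give the mean ± SD of 3 arrays. Stressed arrays lie between -0.38 and 1.32 and watered arrays between 2.66 and 4.25.

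Among the 8 genes with a symbol, LOC543313 and LOC543312 fell most and were also the most uneven. LOC543313 (Ta.5385.1.S1_at) read 3.44, 2.78 and 3.10 in watered and -0.47, 1.47 and 0.11 in stressed Y12-3 roots, and 2.76, 2.90 and 3.04 against 1.36, 0.43 and -0.59 in A24-39. The differences were -2.74 ± 0.52 and -2.50 ± 0.52 (SE). LOC543312 (Ta.8955.1.S1_at) read 3.49, 3.02 and 2.98 against 0.43, 1.56 and 0.03 in Y12-3, and 3.11, 2.97 and 2.64 against 2.01, 0.79 and -0.27 in A24-39. For both genes the second stressed array was the highest in Y12-3 and the first in A24-39, and the third A24-39 array lay under the highest non-target control. The watered arrays varied far less, with an SD of 0.33 and 0.14 for LOC543313 against 0.99 and 0.97 in stressed roots (n = 3 each).

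LOC543086 and LOC543390 fell evenly. LOC543086 (Ta.14486.1.S1_at) had a mean of 2.37 ± 0.10 in watered and 0.47 ± 0.14 in stressed Y12-3, and of 2.22 ± 0.10 and 0.50 ± 0.13 in A24-39 (SD, n = 3). LOC543390 (Ta.92.1.S1_s_at) had 3.40 ± 0.09 and 1.63 ± 0.13 in Y12-3 and 3.23 ± 0.14 and 1.75 ± 0.09 in A24-39 (SD, n = 3). LOC100037587 (Ta.5508.1.S1_at) fell by 1.69 and 1.37, LOC542826 (Ta.18203.1.S1_at) by 1.58 and 1.70, LOC543398 (Ta.27312.1.S1_x_at) by 1.56 and 1.67, and LOC543438 (Ta.169.1.S1_x_at) by 1.43 and 1.79. The last of these read 2.62, 2.44 and 1.52 in stressed Y12-3 and 2.18, 2.67 and 1.60 in stressed A24-39 roots, with the third array lowest in both.

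A second probe set was on the array for 2 of these genes, outside the set. Ta.21038.1.S1_at of LOC543398 fell by 1.17 and 1.19, short of the limit, from watered means of 1.94 and 1.77. TaAffx.54372.1.S1_at of LOC543438 fell by 0.37 and 0.49 from watered means of 0.11 and 0.30, and both stressed means lay below that floor of the non-target controls, so the size of these 2 differences is a lower bound.

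Some members kept a high signal after their fall, which on an array also depends on the probes and does not rank transcripts. Both stressed means were at 1 or above for 37 members and at 2 or above for 8, while both were under 0.5 for 47. TaAffx.9252.1.S1_x_at had the highest stressed signal of the members. It read 4.63, 4.95 and 4.32 in watered and 2.49, 3.38 and 2.33 in stressed Y12-3 roots, and 4.58, 4.82 and 4.98 against 2.62, 3.51 and 2.76 in A24-39. The second stressed array was the highest in both genotypes, and no stressed array reached a watered one. Ta.19375.1.S1_a_at fell by 2.04 and 2.39 to means of 2.37 and 2.33, and Ta.14360.1.S1_x_at by 2.06 and 2.05 to 2.22 and 2.38. Ta.5452.2.S1_x_at fell by 1.62 and 1.72 and Ta.28349.1.S1_x_at by 1.32 and 1.38, the latter close to the limit of the rule.

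The 150 members belong to 117 sequence groups. Of these groups 92 hold 1 member, 19 hold 2, 5 hold 3 and 1, Ta.8141, holds 5, so the members are not independent of each other. The 5 probe sets of Ta.8141 fell by 1.74 to 2.74 in Y12-3 and by 1.44 to 2.31 in A24-39. On all 5 the third stressed array was the lowest in both genotypes. The 3 members of Ta.21082 fell by 2.02 to 2.69 and by 2.14 to 2.85, with the second stressed array highest and the third lowest in both genotypes. Those of Ta.19434 fell by 1.95 to 2.29 and by 1.71 to 2.09. Those of Ta.19423 fell by 1.59 to 1.97 and by 1.62 to 2.0 and read 1.65 or more on every stressed array.

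The same groups hold 99 probe sets outside the set. They are the probe sets of these groups that missed the rule, so they too are a selected set, and they target related sequences. Both differences were under 0 for 90 of the 99 and both above 0 for 3. Both watered means were at or under the highest non-target control for 21, where the size of a fall is uncertain. Where both watered means were 1.3 or more, which held for 34, the median difference was -1.32 in Y12-3 and -1.39 in A24-39. Over all 4541 tested probe sets that bright, the medians were -0.06 and -0.04. A fall of at least 1.3 in both genotypes was seen in 13 of the 34 (38.2%), against 0.486% of all tested probe sets and 5.75% of the 4541. Neither these shares nor the medians compare like sets. The 34 could reach that fall only with a stressed mean under 0, while the 4541 include all members, so nothing is read from the comparison. The other probe set of Ta.1840 fell by 2.03 and 1.77, whereas the 2 others of Ta.19423 differed by -0.75 to -0.45 in Y12-3 and by -0.94 to -0.33 in A24-39.

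Probe sets of some types were common among the members. Identifiers ending in _x_at, which mark probes that may also bind other sequences, made up 36.0% of the members, against 11.1% of all tested probe sets and 19.6% of the 15652 whose 4 group means were all at or above 0. Identifiers ending in plain _at, which mark probes unique to 1 transcript in the array's design, made up 40.7%, against 79.2% and 59.7%. Identifiers that begin with TaAffx made up 4.0% of the members, against 48.6% and 21.1%. Probes of the _x_at kind can carry signal from more than 1 gene copy.

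**Figure D3:**
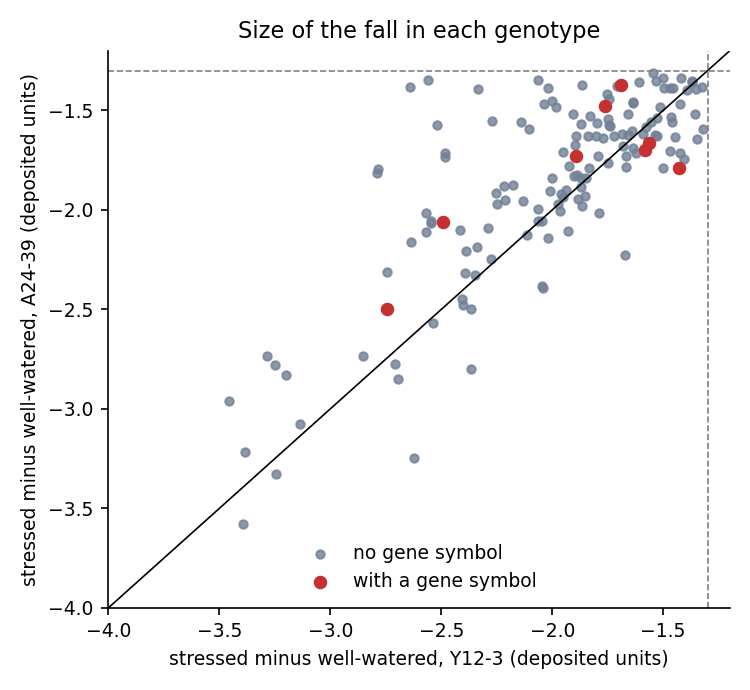
Stressed minus well-watered difference of each of the 150 members in Y12-3 (horizontal) and A24-39 (vertical), in deposited units. Dashed lines mark the limit of the rule at -1.3, the solid line marks equal falls, and red points are the 8 probe sets with a gene symbol. Points above the solid line fell more in Y12-3, which holds for 99 of the 150.

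The size of the fall was then set between genotypes. The rule bounds both falls alike and names no genotype, but a member that fell in only 1 genotype could not enter, so large differences in response are underrepresented. The response in Y12-3 minus that in A24-39 had a median of -0.08, between -1.26 and 0.62. It was smaller than 0.5 in size for 130 members. The fall was larger in Y12-3 for 99 members and larger in A24-39 for 51. The response of Y12-3 minus that of A24-39 was thus above 0 for 34% of the members, against 60.5% of the probe sets whose 4 group means were at or above 0, most of which were not chosen for a fall. limma's test of this interaction called 0 of the 150 at an adjusted p under 0.05, where 0.0851% of all tested probe sets were called, and the lowest adjusted p among the members was 0.105. At an unadjusted p under 0.05, 12 of the 150 passed, 1 of them with the larger fall in A24-39. Among all tested probe sets 8.34% passed at that level. The median SE of a member's interaction was 0.308, so differences of response of this order were not resolved with 3 arrays per group.

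The 2 members whose falls differed by 1 unit or more, named for that after their values were seen, were Ta.13950.1.S1_x_at and Ta.4876.1.A1_x_at. Ta.13950.1.S1_x_at fell by 2.64 in Y12-3 and 1.38 in A24-39 (interaction -1.26, limma adjusted p = 0.267). Ta.4876.1.A1_x_at fell by 2.56 and 1.35. The lowest adjusted p belonged to Ta.29653.1.A1_s_at, whose fall of 2.0 in Y12-3 and 1.45 in A24-39 had little spread. It read 2.64, 2.71 and 2.69 in watered and 0.73, 0.60 and 0.71 in stressed Y12-3 roots, and 2.15, 2.23 and 2.47 against 0.83, 0.87 and 0.79 in A24-39. Its 3 watered Y12-3 arrays lay above, and its 3 stressed Y12-3 arrays below, those of A24-39. Without the third watered Y12-3 array limma called 1 of the 150 (0.667%) in the interaction, where 1.02% of all tested probe sets were called, and without the third watered A24-39 array also 1, where 0.231% were.

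The level in each watering regime was compared between genotypes, a contrast the rule did not take. The rule bounds the levels of both genotypes from below, which does not hold for all tested probe sets. A probe set low in 1 genotype could not enter, so large differences in level are underrepresented. In watered roots limma called 9 of the 150 members (6.0%), 8 higher and 1 lower in Y12-3. Over all tested probe sets 5.29% were called (2.8% higher and 2.49% lower), and 6.99% of those whose 4 group means were at or above 0. The share among the members was thus near the background in this fit. The median Y12-3 minus A24-39 difference was 0.11 over the members and -0.003 over all tested probe sets. It was above 0 for 101 of the 150 (67.3%), against 52.5% of the probe sets whose 4 group means were at or above 0. In stressed roots 7 of the 150 (4.67%) were called, 3 higher and 4 lower in Y12-3, against 8.47% of all tested probe sets (5.08% higher and 3.4% lower) and 12.5% of those whose 4 group means were at or above 0. There the median difference was 0.01 over the members, and 76 of the 150 (50.7%) were above 0, against 60.0% of those whose 4 group means were at or above 0. The 3 watered Y12-3 arrays all lay above the A24-39 arrays for 21 members and below for 4, where 8.44% and 8.79% of all tested probe sets did so. In stressed roots these counts were 14 and 15, against 15% and 23.3%. Rescaling to spike-in controls shifted the median of all tested probe sets from -0.003 to -0.091 in watered and from -0.024 to -0.19 in stressed roots, and that of the members from 0.11 to 0.21 and from 0.009 to 0.01.

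Same-numbered arrays of the genotypes deviated together within each watering regime, and the comparison with these numbers as blocks gave more calls. The labels do not name pairs, and the blocks were chosen after these joint deviations were seen in the same data. Calls added by the blocks are therefore not separate support. With it limma called 24 of the 150 (16%) in watered roots, 20 higher and 4 lower in Y12-3, against 6.47% of all tested probe sets (3.15% higher and 3.32% lower) and 11.6% of those whose 4 group means were at or above 0. In stressed roots it called 19 (12.7%), 12 higher and 7 lower, against 8.74% (5.3% higher and 3.44% lower) and 16.2%. The median SE of the members went from 0.217 to 0.122, and that of the probe sets whose 4 means were at or above 0 from 0.087 to 0.067. All 9 and all 7 calls of the fit without the block were also made with it. In the interaction it called 0 of the 150, against 0.25% of all tested probe sets.

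Ta.21064.2.S1_at had the lowest adjusted p of the members in both regimes. In watered roots it read 1.68, 1.83 and 1.69 in Y12-3 and 3.19, 3.03 and 3.61 in A24-39, a difference of -1.54 ± 0.13 (SE; limma adjusted p = 8.73e-05). In stressed roots it read 0.35, 0.44 and 0.45 in Y12-3 and 1.59, 1.87 and 1.59 in A24-39, a difference of -1.27 ± 0.13 (limma adjusted p = 0.000229). The genotypes did not overlap in either regime, and the stressed A24-39 arrays were at about the level of the watered Y12-3 arrays. Both calls held under all 20 alternative settings.

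Ta.13950.1.S1_x_at differed between genotypes in stressed roots. It read 0.40, 0.87 and 0.01 in Y12-3 and 2.13, 2.15 and 1.48 in A24-39, a difference of -1.49 ± 0.22 (SE; limma adjusted p = 0.00224). In watered roots it read 3.20, 2.91 and 3.09 against 3.14, 3.50 and 3.26, with overlap (difference -0.24 ± 0.22; limma adjusted p = 0.73). The stressed call held under all 20 alternatives. Ta.30028.1.S1_s_at was likewise lower in stressed Y12-3 roots, at 0.92, 1.13 and 0.84 against 1.70, 1.83 and 1.29 (difference -0.64 ± 0.13; limma adjusted p = 0.0141). That call was lost without the first or the third stressed Y12-3 or the first or the second stressed A24-39 array, where the adjusted p was 0.052, 0.0618, 0.0603 and 0.0561. Ta.3253.1.S1_at was lower by 0.37 ± 0.09 (limma adjusted p = 0.0303), and 6 of 20 alternatives lost the call, with an adjusted p of up to 0.194.

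Among members higher in Y12-3, both probe sets of Ta.3418.2 stood out, and they share their target. Ta.3418.2.S1_x_at read 3.21, 3.75 and 3.77 in watered Y12-3 roots against 2.34, 2.88 and 2.56 in A24-39, a difference of 0.99 ± 0.17 (SE; limma adjusted p = 0.00748). In stressed roots it read 1.68, 1.92 and 1.52 against 0.90, 1.11 and 1.07, a difference of 0.69 ± 0.17 (limma adjusted p = 0.036). Ta.3418.2.S1_at was higher by 0.71 ± 0.15 in watered roots (limma adjusted p = 0.022) and read 2.03, 2.32 and 1.88 against 1.44, 1.72 and 1.57 in stressed roots, short of the threshold (limma adjusted p = 0.0737) but past it with the pairs as blocks (limma adjusted p = 0.0042). The genotypes did not overlap on either probe set in either regime. The watered call of the former was lost in a fit of only the 6 watered arrays (limma adjusted p = 0.0612), and its stressed call was lost without any 1 of the 6 stressed arrays (adjusted p of 0.053 to 0.126) and under quantile normalization (adjusted p = 0.139). The call of the latter was lost in 6 of 20 alternatives, with an adjusted p of up to 0.0929, among them fits without the second or the third watered Y12-3 or the first or the third watered A24-39 array.

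Ta.1174.1.S1_x_at, one of the 8 largest falls, was higher in watered Y12-3 roots, at 3.75, 3.63 and 3.51 against 2.66, 2.85 and 2.96 (difference 0.81 ± 0.16, SE; limma adjusted p = 0.013). It was not called in stressed roots (0.34 ± 0.16; limma adjusted p = 0.216), and the watered call was lost without the first watered A24-39 array (adjusted p = 0.0634). Ta.2636.1.S1_x_at read 2.89, 2.18 and 2.45 in watered Y12-3 roots against 1.48, 1.85 and 1.31 (difference 0.96 ± 0.21, SE; limma adjusted p = 0.0221). In stressed roots it was close to 0 in both genotypes, at 0.14, 0.48 and -0.11 against 0.35, 0.11 and 0.01. Its call was lost in 5 of 20 alternatives, with an adjusted p of up to 0.0871, among them fits without the first or the third watered array of either genotype. Ta.29496.1.S1_x_at was higher in stressed Y12-3 roots, at 2.13, 2.64 and 2.69 against 1.501, 1.86 and 1.70 (difference 0.80 ± 0.16, SE; limma adjusted p = 0.013), a call lost without the second or the third stressed Y12-3 or the first stressed A24-39 array (adjusted p of 0.0528 to 0.0583).

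The remaining calls were smaller, all higher in Y12-3. In watered roots they were Ta.23081.2.S1_a_at (0.43), Ta.24665.2.S1_at (0.42), Ta.29653.1.A1_s_at (0.40) and Ta.23268.3.S1_a_at (0.40). Ta.23268.3.S1_a_at was also called in stressed roots, where it read 0.63, 0.67 and 0.64 against 0.29, 0.25 and 0.40 (difference 0.33 ± 0.08, SE; limma adjusted p = 0.0232). That stressed call was lost in 7 of 20 alternatives, with an adjusted p of up to 0.213. The watered calls of Ta.23081.2.S1_a_at and Ta.24665.2.S1_at were lost in 11 and 13 of 20, those of Ta.23268.3.S1_a_at and Ta.29653.1.A1_s_at in 5 and 2.

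**Figure D4:**
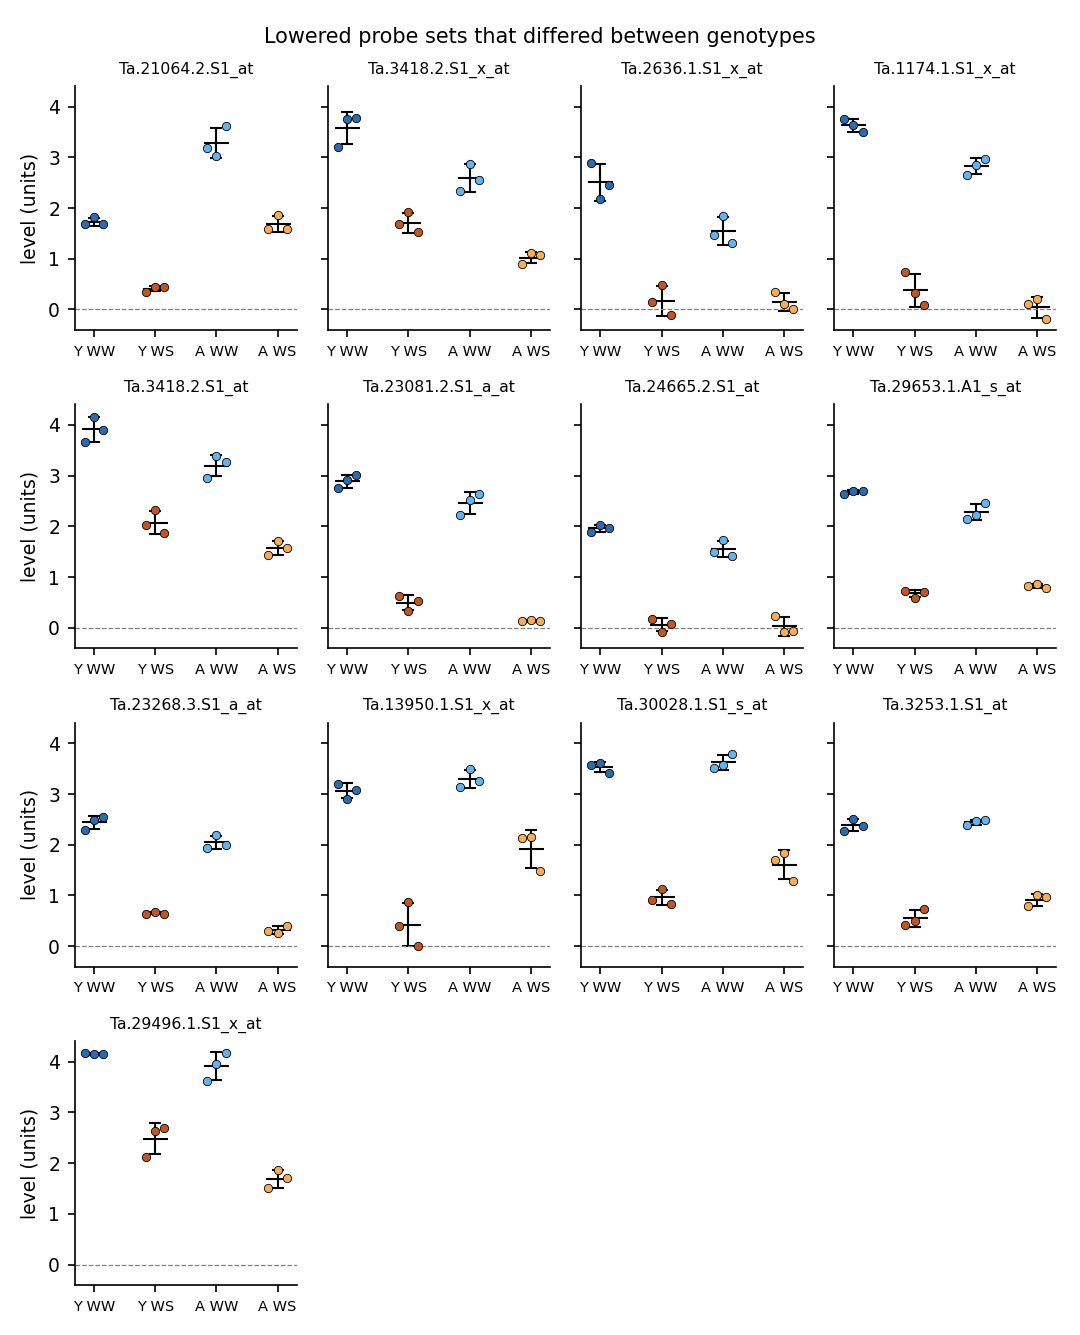
Levels of the 13 members called between genotypes in watered or stressed roots, in deposited log-like units. Groups are Y12-3 (Y) and A24-39 (A), well-watered (WW) or stressed (WS). Points are single arrays and bars give the mean ± SD of 3 arrays. Ta.21064.2.S1_at is lower in Y12-3 under both waterings and Ta.13950.1.S1_x_at in stressed roots.

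The members varied more between arrays of 1 group than other probe sets at similar levels. In watered Y12-3 roots the SD over 3 arrays had a median of 0.243 over the members, against 0.151 over the 3903 other probe sets within the members' range of means. In watered A24-39 the medians were 0.246 and 0.151. In stressed roots they were 0.246 and 0.082 in Y12-3 and 0.212 and 0.088 in A24-39. The probe sets raised by at least 1.3 in both genotypes and lying in the same range had medians of 0.327 and 0.351 in stressed roots (140 and 162 probe sets). The levels of the compared probe sets are not spread alike within these ranges.

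In stressed roots this variation was shared between members and ran against that of the raised probe sets. The members' median deviation from their group mean was -0.03, 0.12 and -0.10 on the stressed Y12-3 arrays, while that of the 244 raised probe sets was 0.19, -0.35 and 0.17. In A24-39 it was 0.05, 0.10 and -0.18 for the members and -0.06, -0.30 and 0.36 for the raised ones. On each of the 6 stressed arrays the signs were opposite. The second array of each genotype thus held the highest members and the lowest raised probe sets, and the third A24-39 array the reverse: on it 23 of the 150 members lay above their group mean, against 107 on the second. Other probe sets whose 4 means were at or above 0 had median deviations between -0.03 and 0.01 on these arrays. In watered roots the raised probe sets deviated by -0.04 to 0.02 and the members by -0.14 to 0.13. There too members shifted together: 28, 97 and 89 of the 150 lay above their group mean on the 3 watered A24-39 arrays. On the watered Y12-3 arrays 64, 95 and 60 did.

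**Figure D5:**
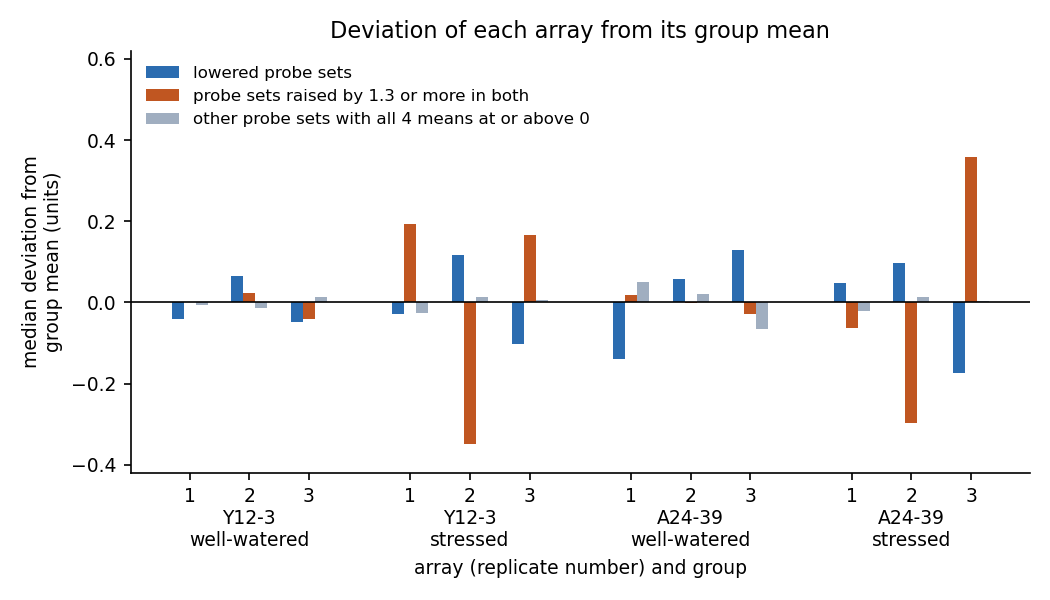
Median deviation of each array from the mean of its group of 3, in deposited units, for the 150 members (blue), the 244 probe sets raised by 1.3 or more in both genotypes (orange-brown) and other probe sets with all 4 group means at or above 0 (grey). On all 6 stressed arrays the blue and orange-brown bars point in opposite directions.

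Several members had 1 array far from its group. On Ta.22525.3.S1_x_at the watered A24-39 arrays read 3.11, 3.01 and 5.78, and on Ta.22525.2.S1_x_at 1.24, 1.10 and 3.60. Ta.22619.1.S1_x_at read 1.18, 1.29 and 4.70 in watered A24-39 and 2.83, 2.13 and 4.08 in watered Y12-3. Ta.2784.1.A1_at read 1.74, 1.70 and 3.85 in the former and 2.49, 1.80 and 3.54 in the latter. For these 4 probe sets, named after their values were seen, the third watered array was the highest in both genotypes. Ta.5576.2.S1_a_at went the other way in A24-39, at 1.71, 2.39 and 0.39, where Y12-3 read 3.21, 3.17 and 2.78. The difference of 1.55 ± 0.43 (SE) between the genotypes was the largest of the members in watered roots in size and missed the threshold (limma adjusted p = 0.0724). With the pairs as blocks it was called (1.55 ± 0.29, limma adjusted p = 0.0241). An SD of 0.9 or more in at least 1 group was found in 10 members.

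A labelling measure moved with watering. For the spiked-in control RNA dap, the signal at the 3′ end exceeded that at the 5′ end by 0.847 ± 0.041 with stressed and 1.25 ± 0.20 with watered Y12-3, and by 0.949 ± 0.061 and 1.15 ± 0.13 with A24-39 (SD, n = 3; exact permutation test, two-sided p = 0.1 in each, the smallest that 3 against 3 allows). Its part in the members' falls was not tested. After the arrays were rescaled to 63 spike-in probe sets the median fall of the 150 was -1.84 in Y12-3 and -1.63 in A24-39, against medians over all tested probe sets of -0.05 and 0.07. The wheat sucrose synthase control, whose enzyme splits sucrose, is excluded by the rule as an array control. Its 3′ probe set read 4.43, 4.52 and 4.17 in watered and 2.85, 2.98 and 2.91 in stressed Y12-3 roots, and 4.13, 4.34 and 4.63 against 3.31, 3.34 and 3.19 in A24-39. These differences are -1.46 and -1.09. The probe set of the middle of the same transcript differed by -1.24 and -1.28 and that of its 5′ end by -0.64 and -0.69, so the genotype with the larger fall was not the same on the 3 probe sets. The 3′ ubiquitin control differed by -0.16 and -0.10. The 18S ribosomal RNA control differed by -0.59, from 0.75 ± 0.23 in watered to 0.16 ± 0.28 in stressed Y12-3, and by -0.64, from 0.94 ± 0.17 to 0.31 ± 0.17 in A24-39 (SD, n = 3). It was lower in stressed roots of both genotypes, as the members were, and its part in their falls was not tested.

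Membership at the limits was fine-grained. Just inside the limit on the fall, the smaller of the 2 differences was -1.313 for Ta.5510.1.S1_at, -1.32 for Ta.21064.2.S1_at and -1.324 for Ta.28349.1.S1_x_at. Just outside it was -1.298 for Ta.4007.1.A1_at, -1.299 for Ta.22525.1.S1_x_at and, before rounding, above the limit for Ta.5529.1.A1_at. Just inside the limit on the level, the lower stressed mean was 0.01 for Ta.21793.1.S1_at and 0.02 for Ta.9481.2.S1_at, and it was at the limit to 2 decimals for Ta.18745.1.S1_at. Just outside it was -0.003 for Ta.19138.1.S1_at, -0.006 for Ta.19612.1.S1_at and -0.01 for TaAffx.81827.1.S1_at. With each of the 12 arrays left out in turn, 93 of the 150 met the rule every time, 57 missed it at least once, and 58 others met it at least once.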

How the data were processed

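The deposited score of each probe set on each array was used unchanged. RMA, which corrects background, normalizes and summarizes probes, is named without a version, per the submitters' processing notes. No source used here gives the log base, centring or scaling. Array correlations within groups were 0.968 to 0.991.

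The 175 control probe sets were left out. limma 3.58.1 in R 4.3.3 (lmFit, eBayes) was fitted to 4 group means over 12 arrays (8 residual degrees of freedom), with Benjamini-Hochberg adjustment over 61115 probe sets and a threshold of 0.05. The fit was tested on simulated data. The number of arrays limits the precision.

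Members and lists were chosen with earlier results of these data known. Named were all members with a symbol, the 8 largest mean falls, the 6 highest stressed levels, members called between genotypes, and the 5 sequence groups with most members. Deviations of same-numbered arrays of the genotypes correlated at 0.197 to 0.278 in watered and 0.17 to 0.575 in stressed roots, over the bound of 0.1, and were treated as pairs, although the first stressed Y12-3 array correlated at 0.175 with the third A24-39 array. Watered and stressed arrays of 1 number correlated at -0.104 to 0.126 and were not paired. Alternatives were other normalizations, filters, weights, blocks and arrays left out.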

Additional observations from a re-analysis of the deposited data

How the results depend on the processing

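The set held 131 to 168 probe sets under the other normalizations, with medians in place of means and with single arrays left out, and it held 293 with a limit of -1 and 87 with a limit of -1.6. Quantile normalization kept 142 of the 150 members and rescaling to spike-in controls kept 124. In watered roots, the 9 calls between genotypes (6% of members, 5.29% of all tested probe sets) became 15 with a replicate block over all arrays (10% and 5.53%), 24 with the pairs blocked separately by watering (16% and 6.47%) and 2 in a fit of only the 6 arrays compared (1.33% and 2.41%). Leaving out single arrays gave 3 to 12, with 3 without the first watered A24-39 array (2% and 3.13%) and 5 without the second watered Y12-3 array (3.33% and 3.91%). In stressed roots, the 7 calls (4.67% and 8.47%) became 11 with dim probe sets left out (7.33% and 16.3%), 15 with array weights (10% and 20.1%), 12 with a replicate block (8% and 8.65%), 19 with the pairs blocked separately by watering (12.7% and 8.74%) and 12 with only the 6 arrays (8% and 12.2%). The members' share was below that of all tested probe sets in each of these but the fit with pairs blocked separately. After rescaling to spike-in controls it was above: 9 stressed calls (6%), against 3.69% of all tested probe sets. In watered roots that rescaling also gave 9 calls (6%), against 2.07%. Leaving out single arrays gave 3 to 10, with 3 without the first or the third stressed Y12-3 or the first stressed A24-39 array (2%, against 4.94% to 5.57%) and 4 without the second stressed A24-39 array (2.67% and 4.89%). In the interaction, the count of 0 became 1 after rescaling to spike-in controls (0.667% and 0.188%) and 2 with array weights (1.33% and 1.42%), and leaving out single arrays gave 0 to 1. The cause of these changes was not tested, and the fits that leave arrays out also hold fewer arrays. No called member changed direction under the 20 alternatives run for it. Many of them could not change it: blocks, the dim filter, the trend fit and the fit of only the 6 arrays keep the difference itself. So does leaving out an array of the other watering regime. Signal over background limits the members least in watered roots, and 20 of them had a stressed array at or under the highest non-target control.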
